A study of Arabidopsis thaliana with 24 samples.

Results

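The transcript response to 1 h of SHAM was compared between shoots and roots of wild-type Arabidopsis thaliana (Col-0) seedlings, gene by gene. SHAM, salicylhydroxamic acid, is an inhibitor of the mitochondrial alternative oxidase and also of lipoxygenases and peroxidases. The comparison is among 12 of the 24 libraries of the study, 3 in each of 4 groups: roots in water, roots in SHAM, shoots in water and shoots in SHAM, all collected at 1 h. The spread behind the tests and the filter on low counts came from all 24 libraries. The groups were taken from the sample labels. All seedlings were of the same genotype and age, roots and shoots were separated after the treatment, and each library came from a pool of many seedlings, so the values describe whole organs. The treatment label gives SHAM at 1 mM, while the protocol text names a lower SHAM dose and a mixture of SHAM with the osmoticum polyethylene glycol. Neither the dose nor the presence of polyethylene glycol could be settled from the labels, and SHAM stands below for the treatment as labelled. The organ difference of a gene is its log2 effect in shoots (SHAM over water) minus its log2 effect in roots. A positive value means that the effect was higher in shoots, also where roots fell and shoots did not change. Called higher or lower in shoots refers below to this difference and not to the transcript level. In whole organs, fewer cells of a type and less RNA per cell cannot be told apart.

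The alternative oxidase lets electrons bypass the later, proton-pumping part of the mitochondrial electron transport chain, and its main stress-inducible gene in Arabidopsis is AOX1A. Salicylhydroxamic acid also resembles salicylate, a defence hormone whose response runs through the receptors NPR1 and NPR3 and WRKY transcription factors. Roots and shoots carry the same genome but start from different transcriptomes: photosynthesis and light-dependent clock output dominate in shoots, while root hairs, endodermis and secreted peroxidases mark roots.

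Organ identity was visible in the water libraries, in which 31 of 31 photosynthesis genes were higher in all 3 shoot libraries than in any root library. In the opposite direction, 15 of 15 root hair genes, 7 of 7 endodermis genes and 15 of 16 class III peroxidase genes were higher in every root library. The shallowest libraries were root water replicate 2, with 862731 counts, and shoot SHAM replicate 1, with 885920, and the deepest was shoot water replicate 3, with 3622300. Root SHAM replicate 1 stood apart from the other root libraries. Photosynthesis genes took 2.73% of its counts (Wilson 95% interval 2.71 to 2.75%), compared with 0.0869 to 0.135% of counts in the remaining 5 root libraries and 16.2 to 24.3% in the shoot libraries. Genes at least 50-fold higher in shoots in water (377 genes) were at a median of 5.66% of their shoot level in that library and at 0.286 to 0.557% in the other roots. Calls of named genes that were lost without this library are given as such below.

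Of 11704 genes tested, 694 (5.93%) had an organ difference at an adjusted p under 0.05 (edgeR quasi-likelihood test, Benjamini-Hochberg), the threshold for a call throughout. Of these, 231 (1.97%) were higher and 463 (3.96%) lower in shoots. The called differences were large: 692 of 694 were at least 1 on the log2 scale, the smallest was 0.956, and the median size was 2.16. Without root SHAM replicate 1, 618 of 12471 genes (4.96%) were called, 293 higher (2.35%) and 325 lower (2.61%). The 2 sets shared 509 genes, 206 higher and 303 lower. The predominance of lower calls moved with scaling: with median-ratio size factors 272 were higher and 339 lower, with library size alone 247 and 319, and with DESeq2 381 and 499. The median organ difference over all genes was -0.15 on the log2 scale, and 0.0004 with median-ratio size factors, a shift of 0.153.

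**Figure D1:**
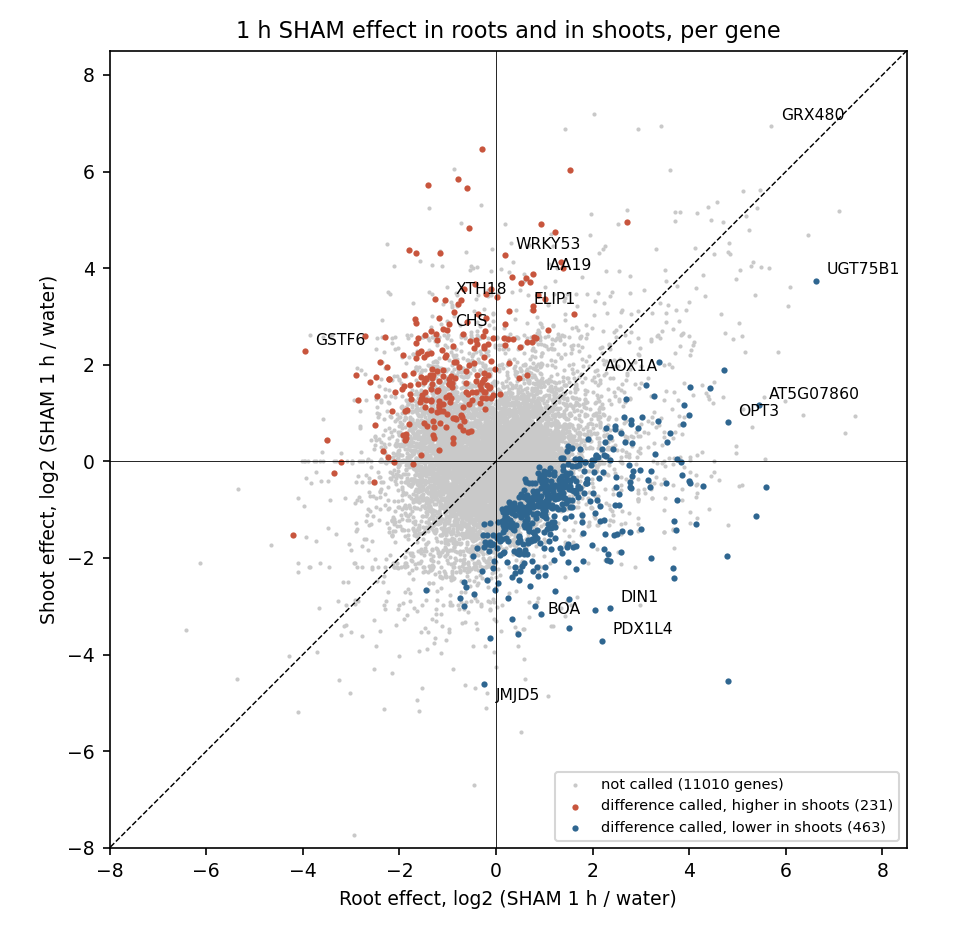
Log2 effect of SHAM at 1 h in roots (horizontal) against that in shoots (vertical) for the 11704 genes tested, 1 point per gene; on the dashed line both effects are equal. Red points are the 231 genes with a called difference that is higher in shoots and blue points the 463 that are lower; AOX1A and GRX480 lie near the line among genes that are not called.

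Most called genes had an effect called in 1 organ only. The root effect was called for 1582 genes (13.5%) and the shoot effect for 1174 (10%). Among the 694 genes, 271 had a called effect in shoots only, 252 in roots only, 22 in both organs with the same sign and 42 in both with opposite signs, while 107 had neither effect called. Leaving out root SHAM replicate 1 kept the call of 204, 184, 19, 40 and 62 of these genes, respectively. Of the 42 genes with opposite signs, 35 rose in roots and fell in shoots and 7 fell in roots and rose in shoots. The root effect of 24 of the 42 was still called without that library. Of the 377 genes at least 50-fold higher in shoots in water, 67 were called, all lower in shoots, where 3.96% of all genes were called lower. Without that library 17 of the 67 kept their call, against 303 of all 463 genes called lower. Genes of the 377 that were called only in that fit were not counted. The 377 genes were chosen by water values that also enter the organ difference.

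Clock genes that were called were all lower in shoots. The plant circadian clock is a loop of transcription factors in which evening genes such as ELF4 and LUX repress morning genes. Of 19 clock genes tested, 4 were called lower in shoots (3.96% of all genes were) and 0 higher (1.97%), and 15 lay below 0. The list's median organ difference was -1.32, against -0.15 over all genes. In shoots 7 of the 19 fell (5.07% of all genes did) and 4 rose (4.96% of all genes), and in roots 0 fell (4.79%) and 3 rose (8.72%). ELF4, a component of the evening complex, was at 196, 166 and 176 CPM (counts-per-million, TMM-scaled) in the 3 root water libraries and at 101, 138 and 154 CPM in root SHAM. In shoots it went from 201, 229 and 190.2 CPM in water to 26.5, 29.0 and 35.8 CPM in SHAM. All 3 shoot SHAM values lay far below every other library, and the organ difference was -2.29 ± 0.36 (SE, n = 3 libraries a group; adjusted p = 0.000577). BOA, a close relative of the evening complex factor LUX, held 80.98, 81.7 and 70.3 CPM in shoot water and 6.24, 4.97 and 16.0 CPM in shoot SHAM. Root values of BOA were 19.5, 9.92 and 11.97 CPM in water and 17.97, 29.4 and 26.0 CPM in SHAM, so the root groups overlapped. Its organ difference was -3.79 ± 0.52 (adjusted p = 0.000189).

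GRP7, a clock-controlled RNA-binding protein, was the most abundant of these genes. It stood at 8441, 7713 and 6959 CPM in shoot water and at 1452, 2085 and 2659 CPM in shoot SHAM. Root libraries held 2907, 3452 and 2823 CPM in water and 2766, 4344 and 3092 CPM in SHAM. The level thus fell in shoots from above every root library to below every one, and the organ difference was -2.05 ± 0.40 (adjusted p = 0.00392). FKF1, a blue-light receptor of the photoperiod pathway, moved in both organs with opposite signs. It went from 8.27, 9.92 and 8.55 CPM to 17.97, 20.7 and 14.7 CPM in roots and from 48.6, 62.0 and 55.7 CPM to 15.6, 28.2 and 35.1 CPM in shoots, with no overlap in either organ. The effects were 1.01 in roots and -1.03 in shoots, and the organ difference -2.04 ± 0.40 (adjusted p = 0.00469). Without root SHAM replicate 1 the root effect of FKF1 was 0.96 (adjusted p = 0.0548). In that fit 6 clock genes were called lower. The 2 added were ELF3, the scaffold of the evening complex, at -1.67 (adjusted p = 0.0388), and ZTL, a relative of FKF1, at -1.47 (adjusted p = 0.0342). JMJD5, a jumonji-domain protein known to act in the clock, was not on the list and had the same shape. It was at 68.6, 71.9 and 83.0 CPM in shoot water and at 4.68, 3.31 and 1.92 CPM in shoot SHAM, while its root values were 11.2, 9.21 and 10.3 CPM in water and 7.79, 10.9 and 6.96 CPM in SHAM. The organ difference came to -4.35 ± 0.66 (adjusted p = 0.000353). ELF4, BOA, GRP7, FKF1 and JMJD5 were each also called in every fit that left out 1 library.

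**Figure D2:**
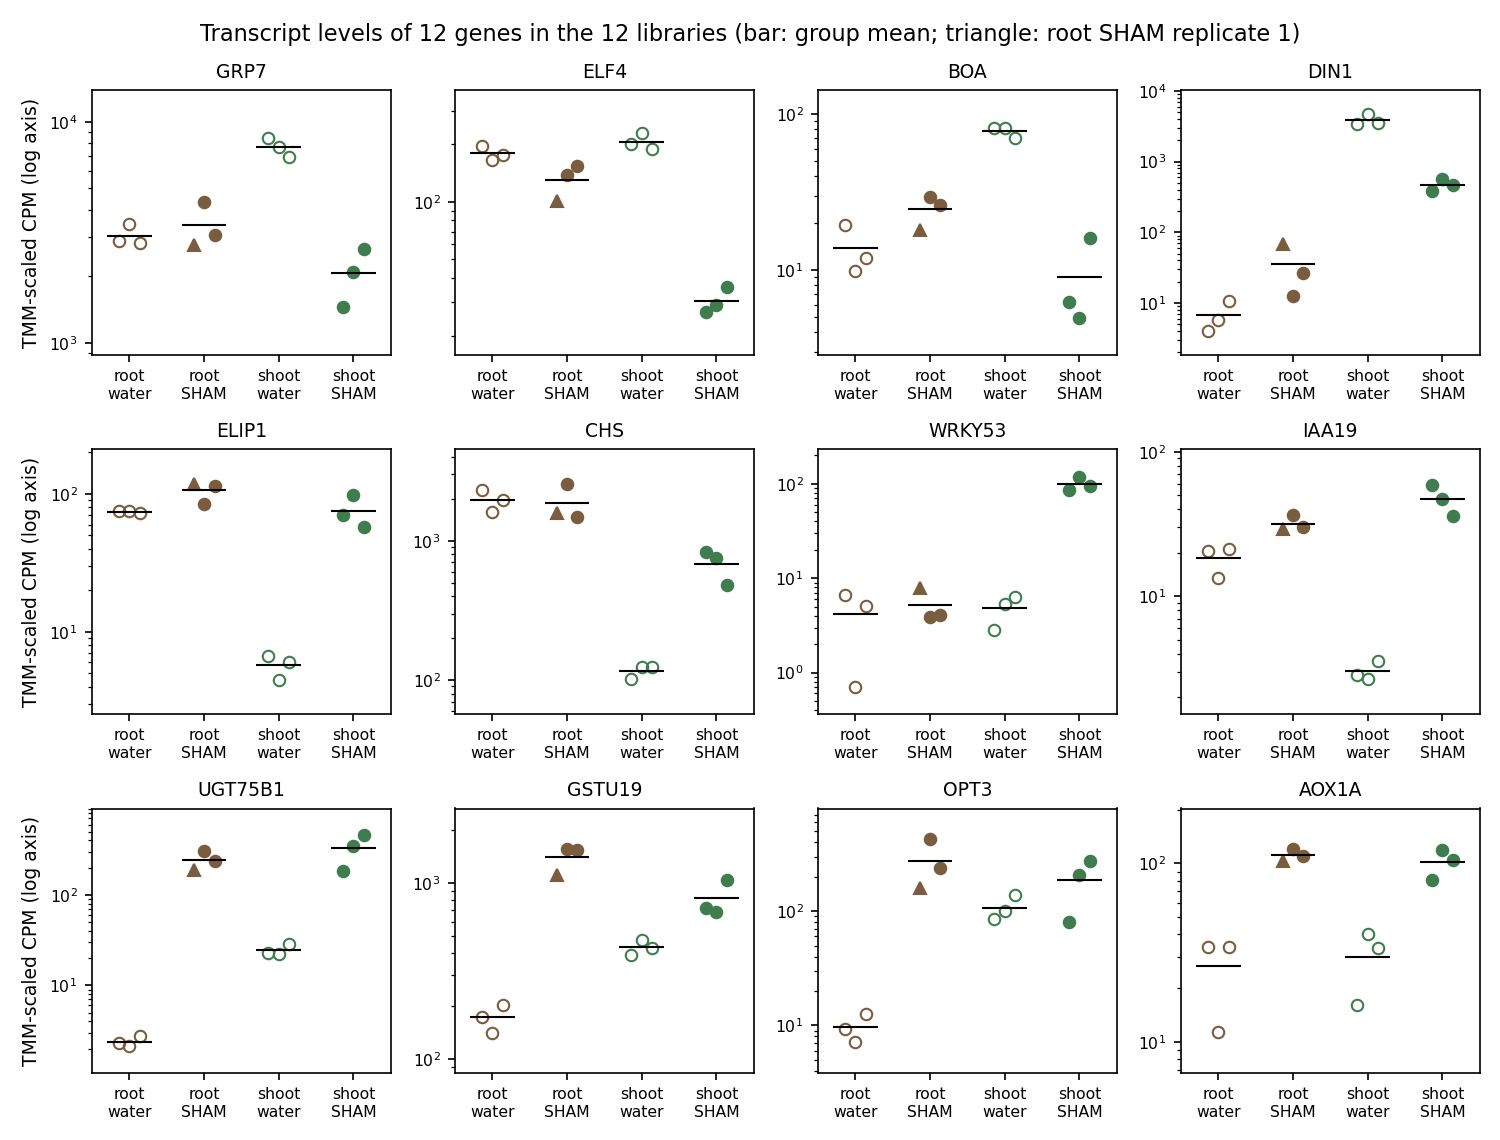
TMM-scaled CPM (log axis) of 12 genes in each of the 12 libraries; open symbols are water and filled symbols SHAM libraries, bars are group means, brown is root and green shoot, and the triangle is root SHAM replicate 1. In the top row the shoot SHAM libraries fall below shoot water; in the middle row they rise with little movement in roots; in the bottom row UGT75B1, GSTU19 and OPT3 rise more in roots, and AOX1A rises in both organs.

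A pair of light-induced genes went the other way. Of 15 light signalling genes tested, edgeR called 2 higher (1.97% of all genes were) and 1 lower (3.96%) in shoots. DESeq2 called 3 higher and 2 lower, and the list's median with edgeR was 0.12. The 2 genes that edgeR called higher were ELIP1 and ELIP2, early light-induced proteins of the thylakoid that bind chlorophyll under high light. ELIP1 was at 6.67, 4.49 and 6.03 CPM in shoot water and 70.2, 97.8 and 57.5 CPM in shoot SHAM. In roots it stood at 75.0, 75.8 and 72.5 CPM in water and at 119, 84.9 and 114 CPM in SHAM. The shoots thus began more than an order of magnitude below the roots and ended near them. The organ difference was 3.18 ± 0.43 for ELIP1 (adjusted p = 0.000189) and 2.77 ± 0.41 for ELIP2 (adjusted p = 0.00035). ELIP2 also rose in roots, with an effect of 1.35 against 4.12 in shoots. HY5, the transcription factor that drives many light-induced genes, was the gene that edgeR called lower. It held 219, 142 and 143 CPM in shoot water and 51.5, 50.5 and 49.2 CPM in shoot SHAM, with 151 to 185 CPM in root water and 131 to 175 CPM in root SHAM. The organ difference of HY5 was -1.63 ± 0.36 (adjusted p = 0.00927).

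CHS, chalcone synthase, the entry enzyme of flavonoid synthesis, rose in shoots but stayed below the level of roots. Shoot water libraries held 101, 125 and 125 CPM and shoot SHAM libraries 825, 746 and 484 CPM, while the root groups overlapped at 1606 to 2303 CPM in water and 1470 to 2560 CPM in SHAM. This gave an organ difference of 2.62 ± 0.41 (adjusted p = 0.000587). Of 9 flavonoid genes tested, edgeR called only CHS higher (1.97% of all genes were) and only UGT78D1, a flavonol rhamnosyltransferase, lower (3.96%). DESeq2 called 2 higher and 1 lower. The organ difference of UGT78D1 was -1.92 ± 0.36 (adjusted p = 0.00252), with a rise in roots from 4.25 to 9.58 CPM in water to 20.9 to 22.8 CPM in SHAM. WRKY53, a transcription factor of senescence and defence, was at 2.86, 5.39 and 6.39 CPM in shoot water and 85.8, 119 and 95.2 CPM in shoot SHAM. It stayed between 0.709 and 7.79 CPM in all 6 root libraries, and its organ difference was 4.07 ± 0.71 (adjusted p = 0.00143). IAA19, an auxin-induced repressor of auxin response, was at 2.86, 2.69 and 3.55 CPM in shoot water and 59.2, 47.2 and 35.8 CPM in shoot SHAM. In roots it went from 20.5, 13.5 and 21.2 CPM to 29.1, 36.2 and 30.0 CPM, an effect of 0.77 that was not called (adjusted p = 0.063). The organ difference of IAA19 was 3.1 ± 0.45 (adjusted p = 0.000275), and it was the 1 gene called of 5 auxin response genes tested (5.93% of all genes were called).

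The called genes of sugar starvation and darkness were all lower in shoots. Genes of this list are switched on when carbohydrate runs out, in part through the SnRK1 kinase. Of 20 tested, edgeR called 3 lower (3.96% of all genes were) and 0 higher (1.97%), with a list median of -1.04, and 2 of the 12 with an unadjusted p under 0.05 lay above 0. DESeq2 called 3 lower and 1 higher, and leaving out 1 library gave 1 to 5 lower. DIN1, a dark-induced senescence-associated gene, was at 3404, 4736 and 3467 CPM in shoot water and 385, 559 and 464 CPM in shoot SHAM. Root libraries held 3.97, 5.67 and 10.6 CPM in water and 67.7, 12.4 and 26.7 CPM in SHAM, the highest being replicate 1. The organ difference was -5.41 ± 0.82 (adjusted p = 0.000353). Without that library it was -4.44 (adjusted p = 0.000998), and the root effect went from 2.37 to 1.43, which was not called (adjusted p = 0.0982). DIN6, an asparagine synthetase, rose in roots from 18.18, 26.2 and 28.7 CPM to 68.9, 157 and 80.9 CPM, while its shoot groups overlapped at 319 to 454 CPM in water and 175 to 695 CPM in SHAM. AKINBETA1, a regulatory subunit of SnRK1, had effects of 0.92 in roots, which was called, and -0.85 in shoots, which was not. The calls of the last 2 genes were less stable: DIN6 (-1.95, adjusted p = 0.0276) was called in 6 of the 12 fits that left out 1 library and AKINBETA1 (-1.77, adjusted p = 0.0156) in 11. Over those fits DIN6 ran from -2.56 to -1.44, with an adjusted p of up to 0.0931, and its call was lost without root water replicate 1 or 2, shoot water replicate 2, root SHAM replicate 2, or shoot SHAM replicate 1 or 2. AKINBETA1 was lost without root water replicate 2 (adjusted p = 0.059).

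**Figure D3:**
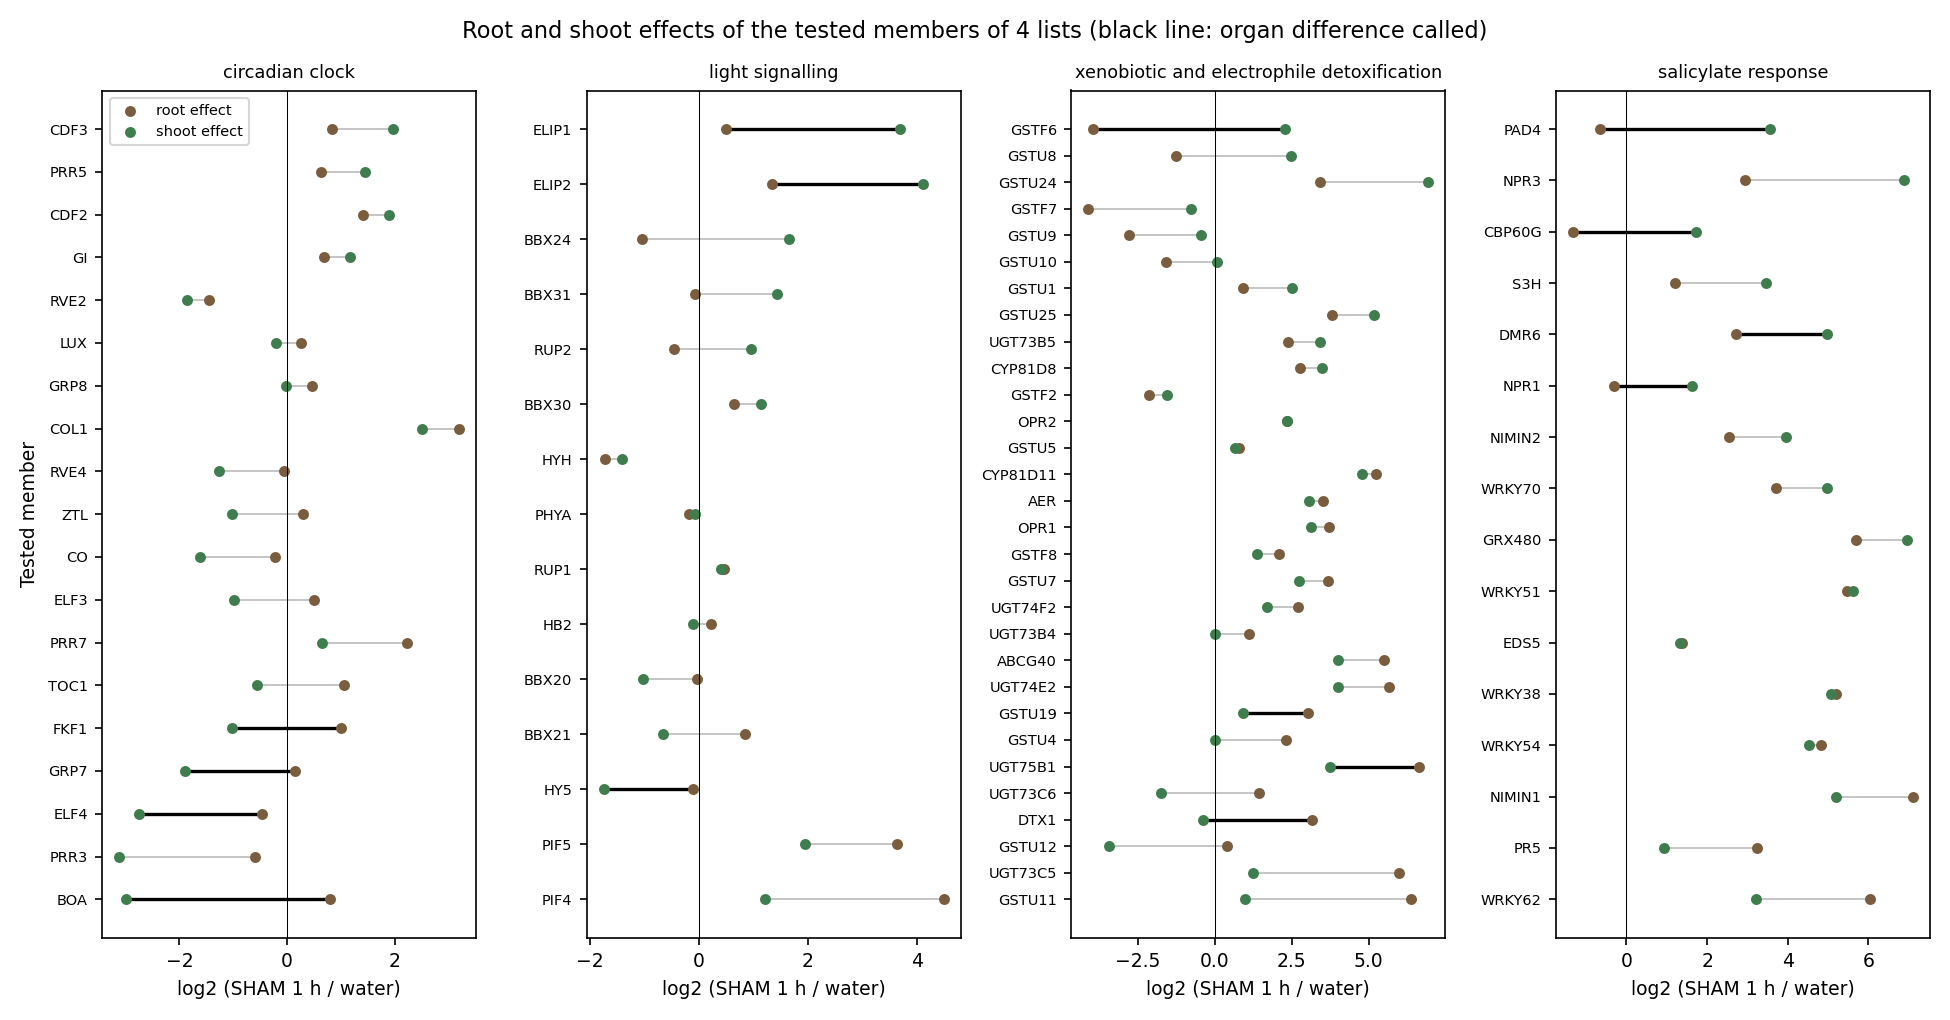
Log2 effect of SHAM at 1 h in roots (brown) and shoots (green) for every tested member of 4 lists, ordered by the organ difference; a black line joins the 2 effects of a gene whose organ difference was called, a grey line those of the others. In the clock panel the called genes have their shoot effect on the left of the root effect; in the salicylate panel the 4 called genes have it on the right, and most members lie right of 0 in both organs.

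Among detoxification genes more rose than fell in each organ. Glutathione transferases and glucosyltransferases conjugate foreign or reactive compounds, and SHAM itself is a foreign compound to the plant. Of 30 tested, 17 rose and 5 fell in roots, where 8.72% and 4.79% of all genes did, and 12 rose and 2 fell in shoots, where 4.96% and 5.07% did. The organ difference was called lower in shoots for 3 (3.96% of all genes) and higher for 1 (1.97%), with a list median of -0.53. UGT75B1, a glucosyltransferase, went from 2.31, 2.13 and 2.74 CPM to 188, 307 and 238 CPM in roots and from 22.9, 22.5 and 28.4 CPM to 186, 349.6 and 459 CPM in shoots. The SHAM levels of the 2 organs overlapped, and it was the water level that differed by organ. Between organs the effects differed by -2.88 ± 0.51 (adjusted p = 0.00171), with effects of 6.62 in roots and 3.74 in shoots. GSTU19, a tau-class glutathione transferase, was at 174, 142 and 202 CPM in root water and 1107, 1563 and 1542 CPM in root SHAM, and at 389.7, 473 and 429 CPM in shoot water and 725, 685 and 1041 CPM in shoot SHAM. Both effects were called, 3.02 in roots and 0.92 in shoots, and the organ difference was -2.10 ± 0.41 (adjusted p = 0.00375). The third lower gene, DTX1, an efflux carrier, had 1 count over the 3 root water libraries and 17 over root SHAM, a ratio of 12.3 (95% counting interval 1.93 to 514), and was called in 7 of 12 leave-one-out fits. It was lost without root water replicate 2 or 3, shoot water replicate 3, root SHAM replicate 2 or shoot SHAM replicate 1 (adjusted p up to 0.0922). GSTF6, a phi-class glutathione transferase induced by pathogens, was the higher gene. In roots it went from 20.2, 77.9 and 31.1 CPM to 4.79, 0.487 and 2.93 CPM, and in shoots from 6.67, 8.08 and 4.26 CPM to 42.1, 38.1 and 10.9 CPM. Neither organ's groups overlapped, and the organ difference of 6.24 ± 1.04 (adjusted p = 0.000951) combined a root effect of -3.96 and a shoot effect of 2.28 that by itself was not called (adjusted p = 0.0544). GSTF6 has a near-identical neighbour, GSTF7, and reads of the pair may have been split. GSTF7 fell by 4.1 in roots and had a shoot effect of -0.76, which was not called.

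Most salicylate response genes rose in both organs. Of 16 genes tested, 11 rose and 0 fell in roots and likewise in shoots, where 8.72% and 4.96% of all genes rose. The organ difference was called higher in shoots for 4 (1.97% of all genes) and lower for 0 with edgeR, and for 3 and 0 with DESeq2. The list's median organ difference was 1.27. The 4 genes were PAD4, a lipase-like defence regulator, CBP60G, a regulator of salicylate synthesis, DMR6, an oxygenase that degrades salicylate, and the receptor NPR1. DMR6 was at 4.63, 10.6 and 7.18 CPM in root water and 59.0, 29.7 and 54.2 CPM in root SHAM, and at 2.86, 3.59 and 1.42 CPM in shoot water and 96.7, 78.7 and 50.5 CPM in shoot SHAM. It rose in both organs, by 2.72 in roots and 4.96 in shoots, with an organ difference of 2.24 ± 0.58 (adjusted p = 0.0229). NPR1 had a root effect of -0.30, which was not called, and a shoot effect of 1.63, which was. PAD4 and CBP60G were low throughout, at most 6.63 and 11.6 CPM. These 4 calls were held in 10 (PAD4), 8 (CBP60G), 8 (DMR6) and 7 (NPR1) of the 12 fits without 1 library, and the number called ran from 0 to 4 over those fits. Each of the 4 was lost without shoot water replicate 3 and without shoot SHAM replicate 2, and the organ differences over all 12 fits ran from 3.84 to 4.77 (PAD4), 2.53 to 3.65 (CBP60G), 1.74 to 2.61 (DMR6) and 1.71 to 2.15 (NPR1). In a fit of only the 12 libraries 1 gene of the list was called. With a replicate block by seedling pool, which treats same-numbered root and shoot libraries as paired, each of the 4 calls was lost (adjusted p 0.0502 to 0.0943). GRX480, a glutaredoxin induced through NPR1, had the highest shoot effect of the list. It went from 6.28, 7.08 and 7.87 CPM to 342, 379 and 380.4 CPM in roots and from 1.91, 0.898 and 0.71 CPM to 162, 129 and 112 CPM in shoots. Its effects of 5.69 and 6.95 gave an organ difference of 1.26 ± 0.52, with a 95% interval from 0.19 to 2.33, which was not called over all genes (adjusted p = 0.169).

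AOX1A rose in both organs. It was at 34.1, 11.3 and 34.2 CPM in root water and 103, 120.2 and 111 CPM in root SHAM, and at 16.2, 40.4 and 33.4 CPM in shoot water and 81.1, 118 and 104 CPM in shoot SHAM. In each organ all SHAM libraries lay above all water libraries. The effects were 2.03 in roots and 1.75 in shoots, and the organ difference of -0.29 ± 0.53 was not called (adjusted p = 0.784). Its 95% interval, from -1.39 to 0.82, leaves room for a difference of either sign. Of 8 mitochondrial dysfunction genes tested, 0 had a called organ difference with edgeR and 0 with DESeq2, and 1 had an unadjusted p under 0.05. In roots 4 of them rose (8.72% of all genes did) and in shoots 5 (4.96%). NDB2, an external NAD(P)H dehydrogenase, rose by 1.6 and 2.41 and NDA1, an internal one, by 5.37 and 3.45 in roots and shoots.

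OPT3 and ERF2, genes of iron transport and of the ethylene response, were called lower in shoots. OPT3, an oligopeptide transporter that loads iron into the phloem, was at 9.26, 7.09 and 12.7 CPM in root water and 161, 429 and 236 CPM in root SHAM. In shoots it stood at 85.8, 99.7 and 137 CPM in water and 81.1, 208 and 272 CPM in SHAM, and the shoot groups overlapped. The organ difference was -3.99 ± 0.64 (adjusted p = 0.000738), and OPT3 was the only gene called of 13 iron deficiency genes tested (5.93% of all genes were called). The others included PYE, a transcription factor of the iron deficiency response, which rose by 2.12 in roots and 1.79 in shoots with an organ difference of -0.32. ERF2, an ethylene response factor, rose from 4.63, 9.21 and 11.3 CPM to 81.8, 92.2 and 82.4 CPM in roots and from 74.3, 98.8 and 90.13 CPM to 176, 165 and 129.7 CPM in shoots. Its effects of 3.36 and 0.83 were both called, and the organ difference was -2.53 ± 0.38 (adjusted p = 0.000353).

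Allene oxide cyclase makes the first cyclic precursor of jasmonate, and 3 of its 4 genes were called, in different directions. These were the genes called among 15 jasmonate synthesis genes tested, where 5.93% of all genes were called. AOC2 went from 1.65, 2.83 and 2.74 CPM to 32.6, 12.7 and 21.6 CPM in roots, while the shoot groups overlapped at 321 to 743 CPM in water and 340 to 547 CPM in SHAM. Its organ difference was -3.42 ± 0.56 (adjusted p = 0.000789). Its root effect was 3.22, and 2.78 without root SHAM replicate 1, in which shoot transcripts were raised. AOC1 had 1 count over the 3 root water libraries and 28 over root SHAM, a ratio of 20.2 (95% counting interval 3.35 to 828), and an organ difference of -4.13 ± 0.80 (adjusted p = 0.00376). AOC3 was low in shoot water (3.81, 8.08 and 5.32 CPM) and rose to 70.2, 47.2 and 35.8 CPM in SHAM, with 53.9 to 80.04 CPM in root water and 93.0 to 121 CPM in root SHAM. The organ difference of AOC3 was 2.37 ± 0.49 (adjusted p = 0.00667). AOC4 had an organ difference of -0.51, which was not called. These genes are close paralogs, and how reads shared among them were counted is not given in the sources used here. LOX1 and LOX2, lipoxygenases of the class that SHAM inhibits, were not called. LOX1 had an organ difference of 0.25 ± 0.70 (95% interval -1.20 to 1.70). LOX2 had 0 counts in root water and 20 in root SHAM, of which replicate 1 held 19. Its organ difference of -4.03 (95% interval -8.63 to 0.57) was -0.64 without root SHAM replicate 1.

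The called genes of the aquaporin and peroxidase lists were all higher in shoots. TIP2;2, a tonoplast aquaporin, was at 2110, 1639 and 1787 CPM in root water and 652, 638 and 604 CPM in root SHAM. In shoots its groups overlapped at 194 to 300 CPM in water and 203 to 339 CPM in SHAM, and the organ difference was 1.68 ± 0.35 (adjusted p = 0.00698). PIP2;1, a plasma membrane aquaporin, was also called (1.13 ± 0.32, adjusted p = 0.0383), with effects of -0.51 in roots and 0.62 in shoots that were not called by themselves, but in 5 of the 12 leave-one-out fits (1.04 to 1.34, adjusted p up to 0.102). The other 17 of the 19 aquaporins of the list were not called by edgeR, which called 5.93% of all genes, and DESeq2 called 3 of the 19. BETA-TIP, an aquaporin outside the list with 0 counts in root water, was called lower (adjusted p = 0.0355). Of 16 class III peroxidases, 7 fell in roots (4.79% of all genes did) and 0 rose, and edgeR called 3 organ differences, all higher in shoots (1.97% of all genes). DESeq2 called 6, and leaving out 1 library gave 0 to 5. PRX34, a peroxidase that makes apoplastic hydrogen peroxide, went from 171, 252 and 112 CPM to 21.6, 10.2 and 20.9 CPM in roots, while its shoot groups overlapped between 7.67 and 26.7 CPM. The organ difference came to 3.1 ± 0.74 (adjusted p = 0.0154), and it was called in 8 of 12 leave-one-out fits, PRX57 in 9 and PRX22 in 3. The root effect of PRX22 was not called (-0.75, adjusted p = 0.074), and its organ difference of 1.47 (adjusted p = 0.0402) was 1.53 without root SHAM replicate 1, which was not called (adjusted p = 0.0517). The calls of PRX34, PRX57 and PRX22 were lost without shoot water replicate 3 and without shoot SHAM replicate 1, and over the fits PRX34 ran from 2.62 to 3.44, PRX57 from 1.08 to 1.4 and PRX22 from 1.2 to 1.67. A peroxidase outside the list, AT5G39580, moved in both organs. It fell in roots from 24.8, 48.9 and 25.3 CPM to 9.29, 2.19 and 3.29 CPM and rose in shoots from 6.67, 6.29 and 1.42 CPM to 39.0, 24.9 and 14.7 CPM, with an organ difference of 5.31 ± 0.95 (adjusted p = 0.00191). Root hair genes fell in roots without a called organ difference. Of 13 tested, 12 fell in roots (4.79% of all genes did) and 0 in shoots (5.07%), with median effects of -2.94 and -0.83. The genes were near 0 in shoots, and the part of this in the missing calls was not tested. With edgeR or with DESeq2 0 had a called organ difference, although the list's median was 1.82. At an unadjusted p under 0.05 the count was also 0.

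XTH18, which remodels wall xyloglucan, was at 8.57, 8.98 and 6.03 CPM in shoot water and 142, 54.7 and 41.5 CPM in shoot SHAM, against 57.5, 135 and 63.3 CPM in root water and 62.9, 19.0 and 40.3 CPM in root SHAM. This gave an organ difference of 4.39 ± 0.72 (adjusted p = 0.000789). FLOT1, a flotillin of plasma membrane microdomains, fell in roots from 22.8, 23.4 and 25.0 CPM to 2.396, 3.65 and 3.29 CPM and went in shoots from 7.62, 8.08 and 13.8 CPM to 40.5, 35.6 and 32.6 CPM. The groups overlapped in neither organ, but the shoot effect of 1.79 was not called by itself (adjusted p = 0.0939). The organ difference of FLOT1 was 4.69 ± 0.96 (adjusted p = 0.00589). AT1G53625, an uncharacterized protein, went from 28.4, 55.3 and 31.8 CPM to 10.18, 19.5 and 26.7 CPM in roots and from 5.72, 3.59 and 2.84 CPM to 12.5, 31.5 and 29.4 CPM in shoots. This gave a difference of 3.75 ± 0.79 (adjusted p = 0.00737), called in every fit that left out 1 library, as were those of XTH18 and FLOT1. Other genes among the 12 highest were less stable. AT3G18250, annotated as a membrane lipoprotein, AT3G05910, a pectin acetylesterase, and AT3G10090, a nucleic acid-binding protein, were called at 4.26, 3.97 and 3.87, in 9, 5 and 4 of 12 leave-one-out fits, and each was lost without root water replicate 2, shoot water replicate 3 or shoot SHAM replicate 2. AGP12, an arabinogalactan protein, EXLA1, an expansin-like protein, and RABA1c, a small GTPase of secretion, were called at 4.14, 4.03 and 3.84, in 8, 9 and 5 of 12 leave-one-out fits. Each was lost without root water replicate 2, shoot water replicate 3 or shoot SHAM replicate 1, and the lowest organ differences were 3.07, 3.27 and 2.82. In AGP12, EXLA1, RABA1c and CAM9 (4.09, called in 3 of 12) root SHAM replicate 2 was the lowest root library and shoot SHAM replicate 3 the lowest shoot SHAM library.

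Among the genes with the smallest p were 2 neighbouring acyltransferases of unknown substrate. AT5G07860 went from 5.95, 4.96 and 5.13 CPM to 151, 364 and 193 CPM in roots and from 53.4, 60.2 and 74.5 CPM to 87.3, 148 and 187 CPM in shoots. Between organs the effects differed by -4.26 ± 0.47 (adjusted p = 2.35e-05). AT5G07870 went from 11.9, 16.3 and 11.97 CPM to 274, 445 and 319.7 CPM in roots and from 30.5, 26.1 and 34.1 CPM to 96.7, 106 and 134 CPM in shoots, with an organ difference of -2.82 ± 0.34 (adjusted p = 6.17e-05). Both genes rose in both organs and more in roots. AT3G29240, annotated as a PPR-containing protein with a domain of unknown function, rose in roots from 34.1, 25.5 and 30.1 CPM to 239, 229 and 246 CPM and overlapped in shoots at 840 to 1020 CPM in water and 646 to 978 CPM in SHAM, with an organ difference of -3.17 ± 0.34 (adjusted p = 2.31e-05). Of the opposite-sign genes, AT2G21130, a cyclophilin, rose in roots from 6.28, 4.96 and 10.6 CPM to 28.2, 40.6 and 32.2 CPM and fell in shoots from 55.3, 62.0 and 82.0 CPM to 21.8, 24.02 and 37.1 CPM. Its organ difference was -3.40 ± 0.46 (adjusted p = 0.000178), and -3.43 without root SHAM replicate 1.

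The called genes of the tryptophan, indole glucosinolate and nitrate lists were lower in shoots. Of 17 tryptophan and indole glucosinolate genes tested, 3 were called, all lower (3.96% of all genes were): ASA1, the first enzyme of tryptophan synthesis, TSB1, the last, and CYP83B1, which channels its product into indole glucosinolates. Their organ differences were -2.12 ± 0.49, -1.51 ± 0.37 and -2.38 ± 0.56 (adjusted p = 0.0125, 0.0183 and 0.015). CYP83B1 stood at 199, 349 and 375 CPM in shoot water and 95.1, 127 and 152 CPM in shoot SHAM, and at 249 to 377 CPM in root water and 508 to 792 CPM in root SHAM. In both organs the groups did not overlap, but the root effect of CYP83B1, 1.08, was not called by itself (adjusted p = 0.069). The calls were held in 11, 10 and 11 of the 12 leave-one-out fits. ASA1 was lost without shoot water replicate 3 (adjusted p = 0.0548), CYP83B1 without root water replicate 2 (0.0557), and TSB1 without either of these libraries (adjusted p up to 0.0565). Of 14 nitrate genes tested, edgeR called 1 lower (3.96% of all genes were) and 0 higher (1.97%), and DESeq2 called 2 and 1. Of the 14, 9 had an unadjusted p under 0.05. The gene called, NIA1, a nitrate reductase, went from 184, 145 and 293 CPM to 49.9, 65.4 and 77.3 CPM in shoots and from 82.3, 37.5 and 90.7 CPM to 168, 126 and 103 CPM in roots, with an organ difference of -2.58 ± 0.56 (adjusted p = 0.00857). NRT2.1, the high-affinity nitrate transporter, fell in roots from 29.1, 56.7 and 76.6 CPM to 0, 1.22 and 0.366 CPM. In shoots it had 38 counts in water and 2 in SHAM, 13-fold lower (95% counting interval 3.37 to 111, counting error only). The shoot libraries held 0.953, 9.88 and 9.23 CPM in water and 0, 0 and 1.28 CPM in SHAM, so the groups overlapped. The shoot effect of NRT2.1 was not called (adjusted p = 0.0577). Its organ difference of 2.92 had a 95% interval from -1.29 to 7.14 and was not called (adjusted p = 0.398).

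**Figure D4:**
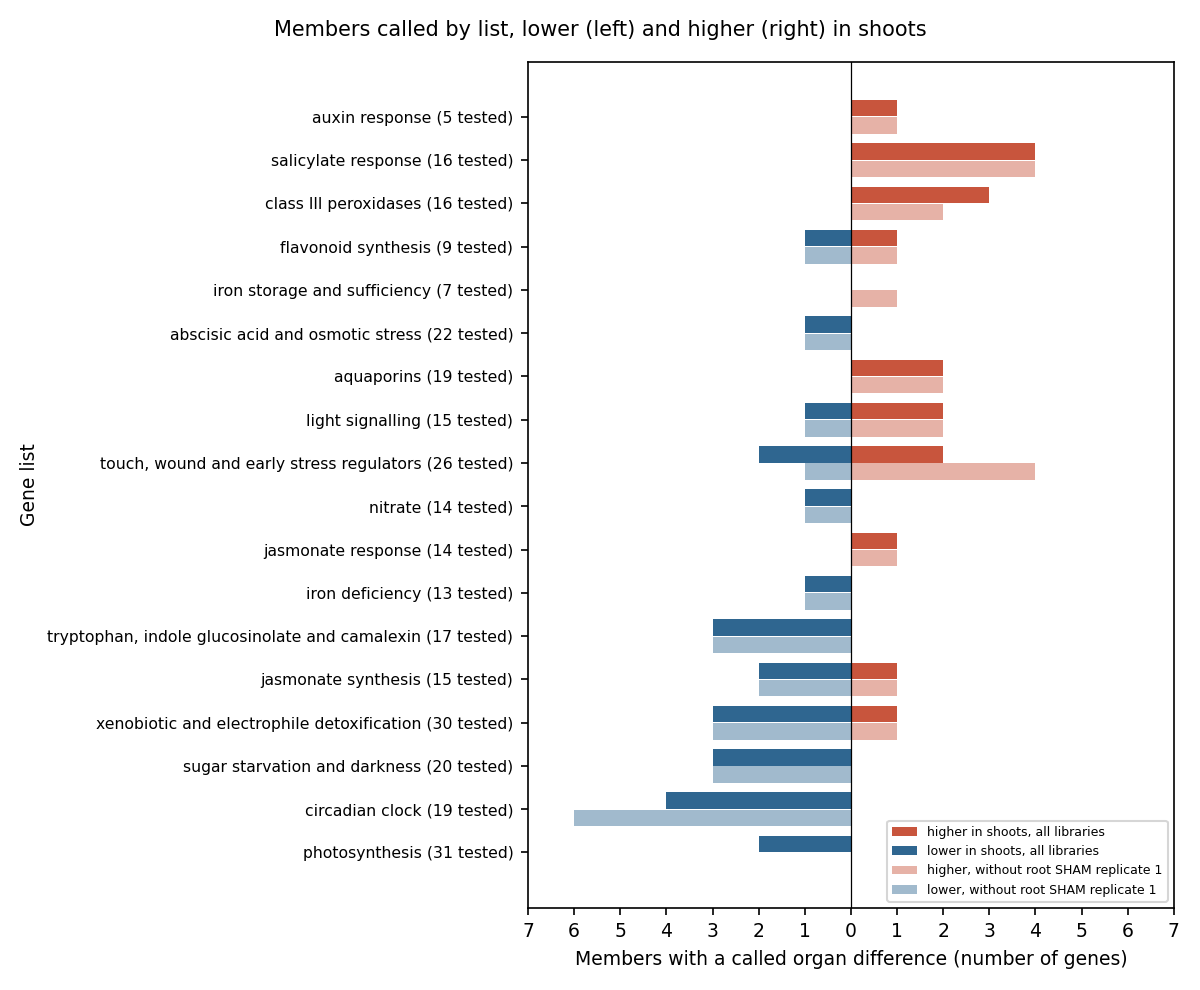
Number of members with a called organ difference in each list described here that had any, lower in shoots to the left and higher to the right; dark bars are the fit of all libraries and pale bars the fit without root SHAM replicate 1, and lists are ordered by their median. The clock bar goes from 4 to 6 lower genes without that library and the photosynthesis bar from 2 to none.

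Photosynthesis genes changed most when root SHAM replicate 1 was left out. With all libraries the median of the 31 genes was -2.27, 25 rose in roots (8.72% of all genes did), and 2 were called lower in shoots (3.96%). These were RBCS1A at -4.45 (adjusted p = 0.0434) and RBCS1B at -4.79 (adjusted p = 0.0434), both small subunits of Rubisco. RBCS1A was at 2248 CPM in root SHAM replicate 1 and at 36.6 to 65.3 CPM in the other 5 root libraries. Leaving out 1 library gave 0 to 13 lower calls, 13 without root SHAM replicate 3, 5 without root SHAM replicate 2, 2 without shoot water replicate 1 and 0 in the other 9 fits. Without replicate 1 of root SHAM the median was 0.47, and 0 of the 31 had a called root effect in either direction, where 7.04% of all genes rose and 5.04% fell in roots. In the same fit the 2 genes stood at -0.16 and 0.47, neither called. With all libraries but median-ratio size factors or library size alone, 0 photosynthesis genes were called, and with DESeq2 4 were, all lower. The 48 chloroplast-encoded genes tested had a median of -1.04 with it and 0.85 without it, and 0 were called by edgeR either way or by DESeq2 (4 had an unadjusted p under 0.05).

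**Figure D5:**
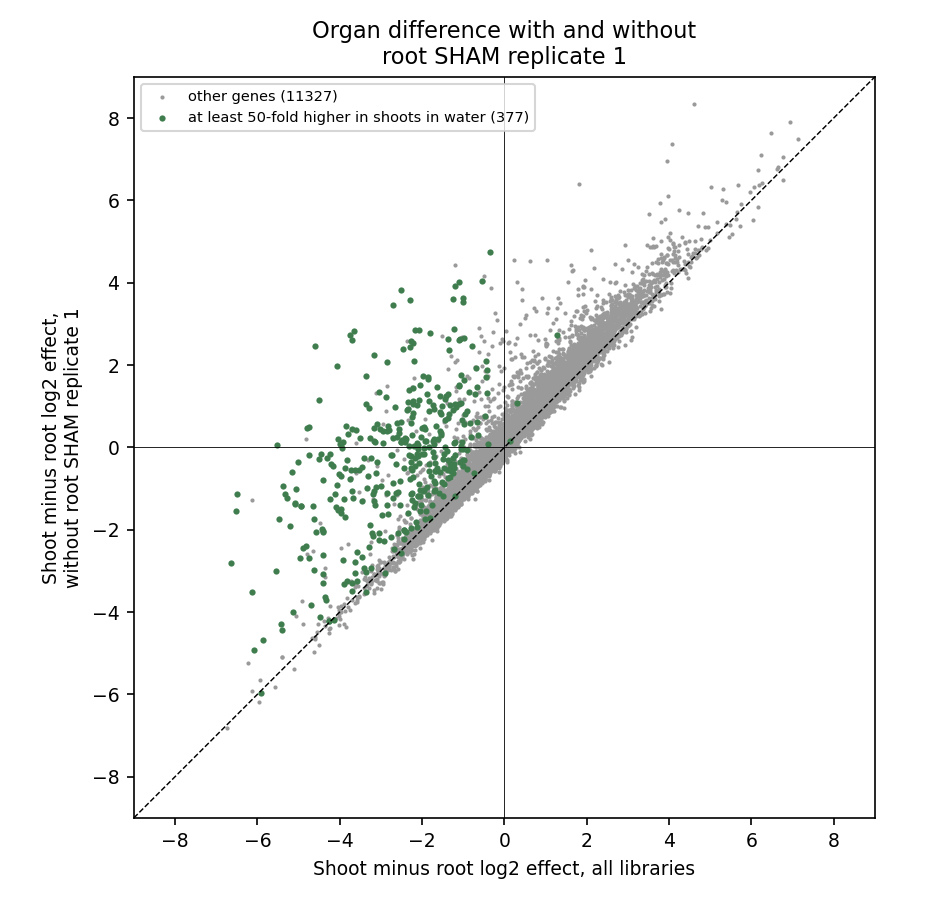
Organ difference of each gene (log2 effect in shoots minus that in roots) with all libraries (horizontal) and without root SHAM replicate 1 (vertical), 1 point per gene; 1 gene lies outside the axes. The 11327 other genes follow the dashed line of equality, while the 377 genes at least 50-fold higher in shoots in water (green) lie mostly above it.

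Several other groups gave 0 called organ differences with edgeR, with or without root SHAM replicate 1. Of 9 heat shock and endoplasmic reticulum chaperones 5 had an unadjusted p under 0.05, all higher in shoots, and DESeq2 called 3. Of 3 cytokinin response genes DESeq2 called 2 higher, and 2 had such a p. Of 16 hypoxia, 7 endodermis and 15 mitochondria-encoded genes 1, 1 and 0 had one, and DESeq2 called 0. Where 5.93% of all genes were called, jasmonate response (14 tested) and abscisic acid and osmotic stress (22) gave 1 each. These were CYP94B3, which inactivates jasmonate, at 2.62, and P5CS1, a proline synthesis enzyme, at -2.17, called in 5 and 4 of 12 leave-one-out fits. Over these fits they ran from 1.87 to 2.99 and from -2.57 to -1.59, and each call was lost without shoot water replicate 2 or 3, root SHAM replicate 2 or shoot SHAM replicate 1, among others. Early touch and wound regulators (26 tested) gave 2 lower (3.96% of all genes were), ERF2 and ERF13, and 2 higher (1.97%), WRKY53 and CBF2. ERF13 (-2.71) was called in 4 and CBF2 (2.49) in 2 of the 12 leave-one-out fits. Without root SHAM replicate 1 the list had 4 higher and 1 lower: TCH2, a calmodulin-like protein, and MYB44, a transcription factor, were added at 3.67 and 1.36, and ERF13 was no longer called. That fit also added FER1, the main ferritin, at 1.43 (adjusted p = 0.0492), among 7 iron storage genes.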

How the data were processed

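Libraries were made by MARS-seq, which sequences the 3' end of transcripts, per the labels. The values used are unnormalized read counts of each gene in each library as deposited, produced by the authors with bcl2fastq, cutadapt, STAR 2.4.2a, HTSeq and DESeq2, per the submitters' processing notes. The genome build, the handling of molecular identifiers and the use of strand are not given in the sources used here, so no coordinates or promoter sequences are printed, and antisense partners cannot be told apart.

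Counts of 16183 genes were fitted in edgeR 4.0.16 (R 4.3.3, limma 3.58.1 and the data.table package, 1.17.8) over all 24 libraries in 8 groups of organ, treatment and hour. The fit used filterByExpr (minimum count 10, minimum total 15), TMM scaling and the quasi-likelihood test, with Benjamini-Hochberg adjustment over all genes tested. The organ difference was the contrast of the shoot and root effects, and it was refitted without root SHAM replicate 1. Standard errors divide the size of the log2 value by the root of the F statistic, and intervals cover 95%. CPM values were computed with TMM-scaled library totals. The lowest and highest library totals are given above. Counting intervals and floors (3 counts) cover counting error only. No gene set test was run; lists are described by counts and medians. DESeq2 1.42.0 was an alternative. The scripts were tested on simulated data. Figures used python 3.11.15 and matplotlib 3.10.9.

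The members and the 25 lists (475 loci, 421 in the table) were chosen with earlier results of these data known. The text names the 12 highest and 12 lowest called differences with at least 10 CPM in both organs and called also without root SHAM replicate 1, up to 3 called members of each list by smallest p, 6 set genes (AOX1A, LOX1, LOX2, GRX480, UGT75B1 and NRT2.1), the 3 highest and 3 lowest of low-level genes, and the 2 smallest p in each class of organ effects, apart from 1 gene. Other list members are named where a count of 5 or fewer includes them or as examples, chosen after their values were seen. The result of 1 list and its called gene is not reported here. Symbols come from the TAIR10.1 annotation, which had a locus tag for 16082 genes. The labels do not say that the seedling pools were grown separately beyond calling them biological replicates, so p-values measure the spread between these libraries.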

Additional observations from a re-analysis of the deposited data

Results flagged for a closer look

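Effects of the same treatment that differed between the organs by the test of the difference itself were taken up here. That test called 694 genes. Of these, 42 had a called effect in each organ with opposite signs, and 8 of the genes named were among them. Their organ differences were -5.91 for PDX1L4, a gene annotated as similar to a vitamin B6 synthesis protein, -5.41 for DIN1, -4.42 for ACD32.1, a small heat shock protein of peroxisomes, -3.89 for HBP1, a heme-binding protein, -3.59 for AT5G24490, annotated as a ribosomal protein, -3.40 for AT2G21130, -2.04 for FKF1 and 5.31 for AT5G39580. PDX1L4 went from 1.32, 2.83 and 1.71 CPM to 6.59, 10.7 and 8.05 CPM in roots and from 231, 160 and 101 CPM to 12.5, 9.11 and 15.3 CPM in shoots. The root rise of PDX1L4 (2.30, adjusted p = 0.0252), AT2G21130 (2.23, adjusted p = 0.000157) and the root fall of AT5G39580 (-3.63, adjusted p = 0.00213) were called also without root SHAM replicate 1. For ACD32.1 (1.27, adjusted p = 0.157), HBP1 (0.68, adjusted p = 0.231), AT5G24490 (1.19, adjusted p = 0.0622), DIN1 (1.43, adjusted p = 0.0982) and FKF1 (0.96, adjusted p = 0.0548) they were not. With that library these root effects were 2.36, 1.21, 1.49, 2.37 and 1.01, so that of FKF1 hardly moved, and its replicate 1 (17.97 CPM) lay between replicates 2 and 3 (20.7 and 14.7 CPM). These 5 genes had higher levels in shoot water than in root water, and so did PDX1L4 and AT2G21130, whose root rise was still called. Root SHAM replicate 1 held raised shoot transcripts, and their part in the root effects was not tested beyond leaving that library out.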

How the results depend on the processing

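Of 73 genes followed with a called organ difference, 40 were called in each of the 12 fits that left out 1 library, and 38 of these in every other fit in which they were tested; HY5 and NIA1 were lost without both shallowest libraries. Against 694 calls (231 higher, 463 lower), DESeq2 gave 880 (381 higher), a fit of only the 12 libraries 333 (105 and 228), a fit without the shallowest library of root water and of shoot SHAM 161 (54 and 107), and an adjusted p under 0.01 156 (43 and 113), or 131 without root SHAM replicate 1. Leaving out 1 library gave 308 calls (without shoot water replicate 3) to 1127 (without shoot SHAM replicate 3), 75 to 416 higher and 195 to 711 lower. The root effect was called for 714 to 1802 genes and the shoot effect for 731 to 1362. A replicate block by number gave 563 calls (190 and 373) and a replicate block by seedling pool 293 (96 and 197); in the latter 23 of the 73 genes were not called, the 4 salicylate genes among them (adjusted p 0.0502 to 0.0943). Same-numbered root and shoot libraries correlated at -0.27, 0.0745 and 0.28 in water and 0.39, -0.14 and -0.39 in SHAM. With 3 libraries a group these values cannot decide whether the numbers pair the libraries, and the labels do not tie them. Leaving out 1 library took the organ difference of NRT2.1 from -0.56 (without shoot SHAM replicate 3) to 4.47, of LOX1 from -0.16 (without the same library) to 0.84, of AOX1A from -0.61 to 0.11 (without root water replicate 2) and of RBCS1B from -5.40 to 0.47 (without root SHAM replicate 1). AOX1A also changed sign without both shallowest libraries (0.16) and with the library total as a covariate (0.22). The cause was not tested. The fits without both shallowest libraries, with the library total and with a gene length trend were chosen after seeing the data. The planned description of promoter motifs was not run, since the authors' genome build is not given in the sources used here. At the depth of the shallowest library 3 counts correspond to 2.13 CPM in root water and 4.68 CPM in shoot SHAM, which limits genes near 0 in 1 organ.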

Other observations

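Some genes with the widest organ differences were near 0 in 1 organ. AT4G39670, a glycolipid transfer protein, had 0 counts in shoot water and 16 in shoot SHAM, at least 7.78-fold higher against a floor of 3 counts over the group. Its root values were 12.6, 17.7 and 16.1 CPM in water and 16.8, 6.08 and 15.01 CPM in SHAM. BGLU22, a beta-glucosidase, had 0 and 11 counts in the same shoot groups, at least 5.35-fold higher, and stood at 47.5 to 89.3 CPM in root water and 21.2 to 50.2 CPM in root SHAM. AT1G79660 had 0 and 10 counts there, at least 4.86-fold higher, and stood at 3.76 to 5.67 CPM in root water and 1.098 to 2.396 CPM in root SHAM. BETA-TIP, a tonoplast aquaporin known from seeds, was the reverse case. It had 0 counts in root water and 15 in root SHAM, at least 3.61-fold higher, with 1.198, 0.243 and 3.66 CPM in root SHAM. Shoots held 9.53, 32.3 and 13.5 CPM in water and 0, 3.31 and 8.31 CPM in SHAM. Neither effect of BETA-TIP was called by itself (adjusted p = 0.0681 in roots and 0.104 in shoots). Its organ difference was called in 4 of the 12 leave-one-out fits, those of AT4G39670 and AT1G79660 in 11 and that of BGLU22 in 10.

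Among called genes that no list held, CIPK9, a protein kinase of the potassium response, rose in roots from 0, 1.42 and 1.03 CPM to 16.8, 8.27 and 6.59 CPM and overlapped in shoots at 78.1 to 95.2 CPM in water and 69.7 to 101 CPM in SHAM. Its organ difference was -3.83 ± 0.67 (adjusted p = 0.00149), and -3.25 without root SHAM replicate 1 (adjusted p = 0.00573). AAH, allantoate amidohydrolase, which releases nitrogen from purines, went in shoots from 13.3, 40.4 and 50.4 CPM to 4.68, 5.80 and 8.95 CPM and had a root effect of 0.86, which was not called. Its organ difference was -3.23 ± 0.55 (adjusted p = 0.00115). AT5G48430, an aspartyl protease, went in roots from 13.9, 12.05 and 4.79 CPM to 22.8, 95.1 and 55.3 CPM. In shoots it went from 14.3, 28.7 and 25.5 CPM to 1.56, 10.8 and 9.58 CPM. Its shoot effect of -1.51 was not called by itself (adjusted p = 0.0794), and its organ difference was -4.02 ± 0.71 (adjusted p = 0.00176). AT1G07985, an uncharacterized protein, rose in roots from 2.98, 3.54 and 2.05 CPM to 22.2, 23.4 and 31.1 CPM and overlapped in shoots at 8.57 to 13.5 CPM in water and 5.80 to 10.9 CPM in SHAM, with an organ difference of -3.71 ± 0.55 (adjusted p = 0.000349). AT5G11070, also uncharacterized, rose in roots from 12.9, 7.79 and 11.6 CPM to 85.4, 46.0 and 61.2 CPM and had a shoot effect of -0.67, which was not called. The organ difference of AT5G11070 was -3.21 ± 0.45 (adjusted p = 0.000243), and -2.86 without root SHAM replicate 1. AT2G44600 had effects of 1.17 in roots and -1.28 in shoots, neither called, and an organ difference of -2.45 ± 0.60 (adjusted p = 0.0184), lost without root water replicate 2 or shoot water replicate 3.

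Within groups, libraries differed along an axis related to gene length. Over 1977 genes with at least 30 CPM in each group, the first component held 48.1% of the within-group variance, and its loadings had a Spearman correlation with gene length of 0.57 across genes, which are not independent replicates. Root SHAM replicate 2 stood at 0.47, shoot SHAM replicate 3 at 0.37 and shoot SHAM replicate 1 at -0.37 on it. The organ difference itself had a Spearman correlation of -0.093 with gene length over the genes tested. Its median by length decile went from 0.047 in the shortest genes to -0.394 in the longest. With the length trend of each library removed, 790 genes were called, 269 higher and 521 lower, of which 658 were among the 694.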
